A study of Mus musculus with 49 samples.

Results

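The genes that encode the linker histones and the replication-independent core histone variants of the late 2-cell mouse embryo are described here across 4 groups of embryos. They were chosen by gene symbol and number 10 of the 54838 genes in the count tables: H1foo, H1f0, H1fx, H2afz, H2afv, H2afx, H2afy, H2afj, H3f3a and H3f3b. Each library came from 1 late 2-cell embryo of F1(C57BL/6JxCBA/H) mice, prepared with Smart-seq+5', in which polyadenylated RNA is reverse transcribed and the reads that start at the 5' end of a transcript are counted. Zygotes were injected with an antibody and, 4 h later, with mCherry-Trim21 mRNA, and were collected 48 h after hCG. In this approach, Trim-Away, the ubiquitin ligase Trim21 directs the protein bound by the antibody to degradation, so that the maternally supplied protein is depleted while the gene stays intact. TBP LOF (loss-of-function) embryos received the mouse monoclonal anti-TBP antibody 3G3 and their CONTROL embryos normal mouse IgG. FOXJ3 LOF embryos received a rabbit polyclonal anti-FOXJ3 antibody and their CONTROL embryos normal rabbit IgG. All 4 groups received mCherry-Trim21, and no embryo without injection was analysed here. After quality control, the TBP experiment had 9 LOF and 9 CONTROL embryos and the FOXJ3 experiment 16 LOF and 13 CONTROL embryos, the latter in 2 library batches of 16 and 13 embryos.

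Linker histones of the H1 family bind the nucleosome where DNA enters and leaves it and favour compact chromatin. H1foo encodes the linker histone of the oocyte, which is inherited by the zygote and replaced by somatic forms during early cleavage, while H1f0 is best known from non-dividing, differentiated cells. Core histone variants differ from the canonical histones in that their genes are expressed outside S phase, from transcripts that are spliced or polyadenylated, and in that dedicated chaperones place them in chromatin. H2A.Z, encoded by H2afz and H2afv, is found at the nucleosomes that flank active promoters. H2A.X, encoded by H2afx, is phosphorylated around DNA breaks. MacroH2A, encoded by H2afy, carries a large additional domain and is found in repressed chromatin, and H2afj encodes H2A.J, which differs from canonical H2A mainly near its end. H3.3, encoded by H3f3a and H3f3b with the same protein sequence, replaces H3 at active genes and at telomeres, and takes the place of protamines in the paternal genome after fertilization. TBP is the TATA-binding protein, a subunit of the factors that start transcription by all nuclear RNA polymerases, and FOXJ3 is a forkhead transcription factor.

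The promoters are shown because TBP contacts DNA just upstream of the transcription start. RefSeq gave a start for 9 of the 10 genes (GRCm38.p6). The missing gene was H2afx. The sequences below are the 250 bases before the RefSeq start, 5' to 3' on the strand of the gene, for the 4 genes that fell in TBP LOF embryos, H2afj, H2afv, H2afz and H3f3a, and for H3f3b, the partner of H3f3a. They come from chr6:136807998-136808247 (plus strand), chr11:6444444-6444693 (minus strand), chr3:137864237-137864486 (plus strand), chr1:180813606-180813855 (minus strand) and chr11:116024505-116024754 (minus strand), in this order. Capitals mark TATAAA and CCAAT, the TATA box and the CCAAT box, and ATTGG is CCAAT read on the other strand.
H2afj: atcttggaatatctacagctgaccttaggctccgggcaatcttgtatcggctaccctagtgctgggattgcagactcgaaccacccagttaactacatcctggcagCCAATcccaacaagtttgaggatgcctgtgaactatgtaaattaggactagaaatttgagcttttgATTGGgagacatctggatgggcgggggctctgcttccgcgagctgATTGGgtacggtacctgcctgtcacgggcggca
H2afv: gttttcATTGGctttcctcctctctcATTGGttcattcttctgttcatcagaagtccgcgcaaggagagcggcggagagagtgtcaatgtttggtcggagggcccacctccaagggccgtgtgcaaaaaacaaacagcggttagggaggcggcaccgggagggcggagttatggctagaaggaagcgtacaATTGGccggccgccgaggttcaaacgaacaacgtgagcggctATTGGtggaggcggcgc
H2afz: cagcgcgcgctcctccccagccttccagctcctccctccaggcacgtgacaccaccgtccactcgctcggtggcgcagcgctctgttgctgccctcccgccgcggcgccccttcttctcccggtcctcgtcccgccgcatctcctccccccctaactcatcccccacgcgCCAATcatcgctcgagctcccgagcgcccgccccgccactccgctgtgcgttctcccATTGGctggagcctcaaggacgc
H3f3a: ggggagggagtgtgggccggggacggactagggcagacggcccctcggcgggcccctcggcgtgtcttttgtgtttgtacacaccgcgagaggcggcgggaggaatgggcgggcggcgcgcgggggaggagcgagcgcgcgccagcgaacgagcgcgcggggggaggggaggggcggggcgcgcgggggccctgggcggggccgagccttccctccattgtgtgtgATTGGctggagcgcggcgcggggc
H3f3b: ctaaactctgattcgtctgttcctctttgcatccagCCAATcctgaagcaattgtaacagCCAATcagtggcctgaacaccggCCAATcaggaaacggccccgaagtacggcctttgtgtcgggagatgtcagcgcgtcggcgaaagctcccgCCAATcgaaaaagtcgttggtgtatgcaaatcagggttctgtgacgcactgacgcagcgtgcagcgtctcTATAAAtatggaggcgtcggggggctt

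The search covered both strands of a window from 250 bases before to 50 bases after the start, and none of the matches overlapped. TATAAA was found in 1 of the 9 windows, that of H3f3b, with its first base 27 bases before the start and on the strand of the gene. Of all 32851 promoters of the same length, 13.6% held TATAAA anywhere and 1.87% held it between 40 and 20 bases before the start on the strand of the gene. CCAAT was found in 6 of the 9 windows against 37.4% of all promoters: 4 times each in H3f3b and H2afv, 3 times each in H2afj and H2afz, 2 times in H1foo and 1 time in H3f3a. In H2afz, 1 of these matches lay 23 bases after the start, outside the printed sequence. The windows of H1f0, H1fx and H2afy held neither motif. These are matches of letters and not mapped sites. The RefSeq start of H3f3b lay 3458 bases inside the start of the gene in the GENCODE annotation of GRCm38 used here, that of H2afy 811 bases, that of H3f3a 338 bases and that of H1fx 155 bases, while that of H1f0 lay 238 bases before it. The annotations differed by at most 7 bases for the other 4 genes.

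In the embryos kept, counted reads per embryo ranged from 1160150 to 5434808 in the TBP experiment and from 1103569 to 3430110 in the FOXJ3 experiment. ERCC spike-in RNA took 4.29% ± 1.19 of the library with TBP LOF and 2.76% ± 0.37 with IgG (SD, n = 9 each). Of the 9 TBP CONTROL libraries, replicates 8, 9 and 10 stood apart, with 14.9 to 16.9% of reads from transposable elements against 22.1 to 37.2% in the other 6, and 3.00 to 4.11% mitochondrial reads against 5.64 to 8.51%. The TBP LOF libraries ranged from 16.3 to 35.2% and from 4.69 to 9.85%. The comparison of TBP LOF with CONTROL embryos was therefore also run without these 3 embryos, a choice made after seeing the data, and the comparison between experiments was not. The tests for TBP were scaled to the spike-ins, so that a lower value means fewer reads of a gene per read of added RNA. Each library was from 1 late 2-cell embryo in both groups, and the cells of an embryo were not counted here. Tbp mRNA, whose protein and not RNA was targeted, was at 195, 280 and 672 normalised reads (lowest, median and highest) in TBP CONTROL embryos and at 6.59, 83.3 and 151 in TBP LOF embryos, without overlap. Its log2 fold change was -2.14 (adjusted p = 5.26e-06 with an SE of 0.37, edgeR quasi-likelihood test). Foxj3 mRNA, likewise no direct measure of its protein, differed by 0.28 between FOXJ3 LOF and CONTROL embryos on the log2 scale (adjusted p = 0.861 with an SE of 0.13, same test). Reads were found for all 9 markers of the late 2-cell embryo and all 10 oocyte markers in every group. Markers of cumulus or granulosa cells, which surround the oocyte and were removed at collection, summed to medians of 14.9 to 26.1 rpm (reads counted per 1000000) by group, with Fshr and Inhba at 0 in all of them, and markers of blastocyst lineages to 4.14 to 4.96 rpm. Of the cumulus markers, 4 had enough reads for the TBP test and 2 of these were lower in LOF embryos. Summed late 2-cell markers had a median of 242 rpm (range 152 to 623) in TBP CONTROL and 933 rpm (426 to 1154) in TBP LOF embryos, where 2 of 9 were higher in the test and 0 lower. Summed oocyte markers had a median of 1428 rpm (782 to 2324) and of 2602 rpm (1800 to 3319) in the same groups, as shares of a library, while in the spike-in scaled test 1 of 10 was lower and 0 were higher. The construct mCherry-Trim21 had medians of 770 rpm in TBP CONTROL, 1390 in TBP LOF, 839 in FOXJ3 CONTROL and 351 in FOXJ3 LOF embryos. The part of these differences in the results below was not tested.

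H2afz, H3f3b and H3f3a led the 10 genes in every group. In TBP CONTROL embryos, H2afz had 645 ± 244 rpm per kb of exon (SD, n = 9), followed by H3f3b with 468 ± 124, H3f3a with 209 ± 36.9 and H2afv with 136 ± 43.2. The genes for H3.3 were thus unequal in the level of their mRNA, as were those for H2A.Z. H2afj followed with 66.4 ± 31.7, H1foo with 48.4 ± 19.9, H2afx with 35.6 ± 16.5 and H1f0 with 9.70 ± 5.68, on the same scale. H1fx, with 0 to 11 reads per embryo, and H2afy, with 0 to 4, were at the edge of detection, and H2afy had no read in 6 of 9 TBP CONTROL embryos. Neighbours in this order often could not be separated. H2afz was above H3f3b in 8 of 9 TBP CONTROL embryos, H2afj above H1foo in 5 of 9 and H1foo above H2afx in 7 of 9, whereas H3f3b was above H3f3a in all 9 without overlap of their ranges. The scale per kb assumes that reads grow with transcript length, which reads of 5' ends need not do. Without it, in rpm, H3f3b came before H2afz in every group and the rest of the order in TBP CONTROL embryos stood.

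**Figure D1:**
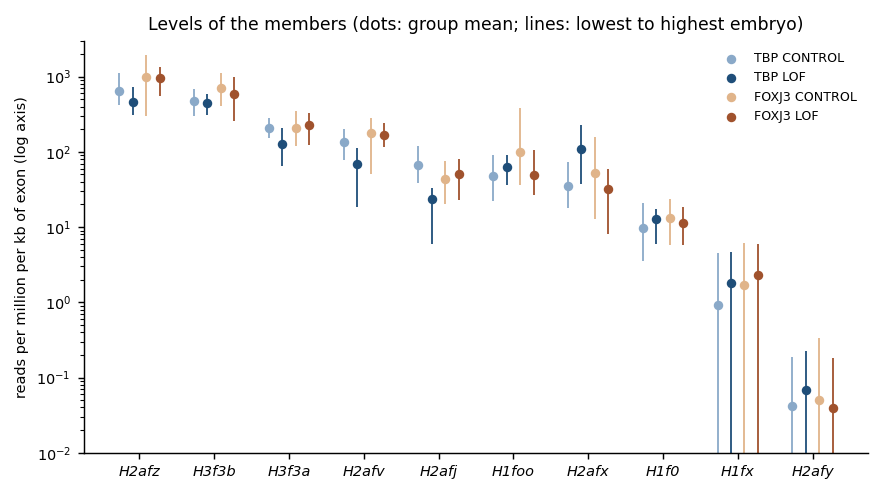
Levels of the 10 genes in rpm per kb of exon (log axis) in the 4 groups of embryos, with dots for group means and lines from the lowest to the highest embryo, in the order of TBP CONTROL embryos. H2afz and H3f3b lead in every group, and the TBP LOF mean of H2afx (110) lies above that of H2afv (68.9), while in TBP CONTROL embryos H2afx (35.6) lies below H2afv (136); lines that reach the lower edge include embryos with 0 reads.

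In TBP LOF embryos, H2afx moved up from the seventh to the fourth place of this order, with 110 ± 60.6 rpm per kb (SD, n = 9). On this scale H2afj moved below H1foo in all 9 embryos, without overlap of the ranges. In rpm, without division by length, the mean of H2afj was also below that of H1foo (43.1 and 74.7). The ranges in rpm overlapped, with H2afj above H1foo in TBP LOF replicate 10 (56.9 and 43.1). The place of H2afx next to H2afv rested on 5 of 9 embryos. H2afz was above H3f3b in 3 of 9 TBP LOF embryos. In FOXJ3 embryos the order kept H2afz, H3f3b, H3f3a and H2afv in front, with H2afz above H3f3b in 11 of 13 CONTROL and 16 of 16 LOF embryos. H1foo was in the fifth place in FOXJ3 CONTROL and in the sixth place in FOXJ3 LOF embryos, where H2afj was above it in 9 of 16 embryos.

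In TBP LOF embryos, H2afj, H2afv, H3f3a and H2afz fell and H2afx rose on the spike-in scale, at an adjusted p under 0.05 in edgeR's quasi-likelihood test. The other genes, H1foo, H1f0, H1fx, H2afy and H3f3b, did not pass. Without adjustment, 6 of the 10 genes were under 0.05, beside 7596 of the 19356 features tested. Without CONTROL replicates 8, 9 and 10, 3 of the 10 genes passed, H2afj (-1.56), H2afv (-1.25) and H3f3a (-1.17), and 4534 of 19421 features, while H2afz (-0.83, adjusted p = 0.0579, edgeR) and H2afx (0.91, adjusted p = 0.0615, edgeR) did not. Of all 19356 genes and transposable element families tested, 31.1% passed, 29.7% lower and 1.34% higher. Among the 8124 features left by the stricter filter on low counts, filterByExpr of edgeR, 52.5% were lower and 1.51% higher, beside 5 lower and 1 higher of the 8 histone genes it left. A lower level was therefore frequent, above all among well-expressed features, and a higher level was rare. The median log2 fold change was -0.45 over the 10 genes and -0.70 over the 18447 genes tested. With filterByExpr it was -0.89 over the 8 histone genes left and -0.90 over the 7699 genes left. Set against the median of -0.70, H2afj stood at -1.43, H2afv at -0.89, H3f3a at -0.63 and H2afz at -0.42, on the log2 scale. On the same scale, H3f3b stood at 0.04, H1foo at 0.45, H1f0 at 0.52, H2afy at 0.56 (SE 0.92), H1fx at 1.06 (SE 0.86) and H2afx at 1.69. The scaling decides the shared part of these values. With TMM, which takes the bulk of the features as unchanged, the median of the genes tested was 0.13 and the calls split into 2451 lower and 2486 higher, against 5758 lower and 259 higher with the spike-ins, and with median-of-ratios scaling the median was 0.15.

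**Figure D2:**
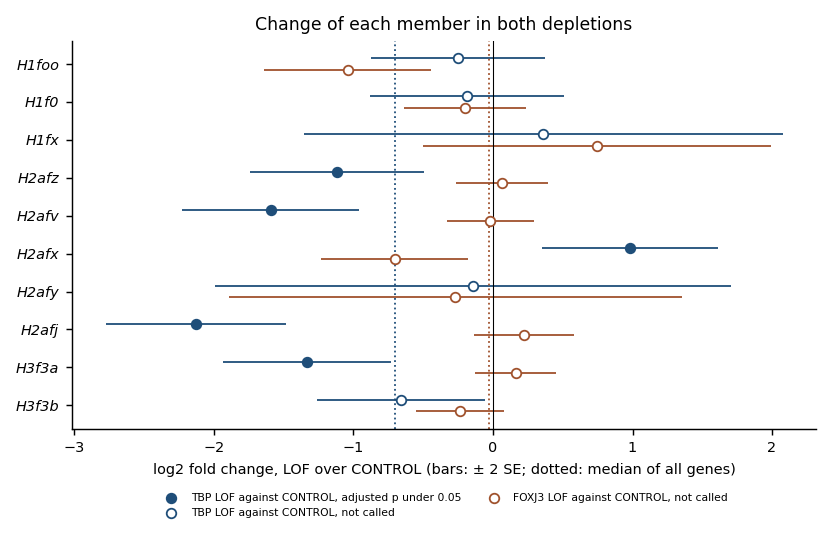
Log2 fold change of LOF over CONTROL embryos for the 10 genes in the TBP experiment (blue, spike-in scaled) and the FOXJ3 experiment (brown, TMM), with bars of 2 SE to each side; filled dots passed the test, and dotted lines mark the medians of all genes tested (-0.70 and -0.03). In the TBP experiment H2afj (-2.13), H2afv (-1.59), H3f3a (-1.33) and H2afz (-1.12) are filled on the left and H2afx (0.98) on the right; with TMM the TBP values of H1foo, H1f0, H2afy and H3f3b lie on the other side of 0.

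Both H2A.Z genes fell in TBP LOF embryos, H2afv by more than H2afz. H2afv lies on chromosome 11 (6427229 to 6444443, minus strand, GRCm38) and had 283, 464 and 811 normalised reads (lowest, median and highest) in CONTROL embryos and 39.6, 152 and 295 in LOF embryos. All but 1 of the 9 LOF embryos were below every CONTROL embryo. The fold change was -1.59 on the log2 scale (adjusted p = 6.40e-05 with an SE of 0.32, edgeR quasi-likelihood test), a level 3.01 times lower. H2afz, on chromosome 3 (137864487 to 137866922, plus strand), had 1421, 2462 and 5267 normalised reads in CONTROL and 723, 1112 and 2162 in LOF embryos. Here 6 of 9 LOF embryos were below every CONTROL embryo and all 9 were below the CONTROL median. The log2 fold change of H2afz was -1.12 (adjusted p = 0.00364 with an SE of 0.31, same test), a level 2.17 times lower. With TMM or median-of-ratios scaling, H2afv stayed lower at an adjusted p under 0.05, whereas H2afz did not pass (-0.21 and -0.19, adjusted p = 0.542 and 0.571, edgeR).

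H2afx was the gene of the 10 that rose. It is a gene of a single exon on chromosome 9 (44334694 to 44336077, plus strand), whose transcripts are known in a polyadenylated form and in a form that ends in the stem-loop of canonical histone mRNA, and the libraries were primed on poly(A). H2afx had 52.8, 96.2 and 195 normalised reads in CONTROL and 95.8, 218 and 417 in TBP LOF embryos. Of 9 LOF embryos, 8 were above the CONTROL median and 5 were above every CONTROL embryo, so that the groups overlapped. The log2 fold change was 0.98 (adjusted p = 0.0121 with an SE of 0.31, edgeR quasi-likelihood test), a level 1.98 times higher, and 1.34% of all features were higher at this threshold. The 417 normalised reads were in LOF replicate 9, the embryo with the lowest Tbp (6.59), H2afv (39.6), H2afz (723) and H3f3a (307) values of its group. That library also had the highest summed blastocyst lineage markers of the TBP embryos (26.6 rpm against a LOF median of 4.62) and 9.02% mitochondrial reads, and the part of these in its values was not tested. In the LOF embryos with the next lowest Tbp, replicates 11 (17.1) and 2 (40.7), H2afx was at 139 and 95.8, both below the LOF median of 218. H2afx passed with each scaling tried and with each of the 18 embryos left out in turn, with log2 fold changes from 0.81 to 1.11 in the latter, but not without CONTROL replicates 8, 9 and 10 together (0.91, SE 0.37).

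H2afj showed the largest fall of the 10 genes. The gene lies on chromosome 6 (136808244 to 136810074, plus strand) and had 170, 209 and 496 normalised reads in TBP CONTROL and 20.3, 63.3 and 121 in TBP LOF embryos. Every LOF embryo was below every CONTROL embryo, as was the case for 6.69% of all features tested. The log2 fold change was -2.13 (adjusted p = 5.91e-07 with an SE of 0.32, edgeR quasi-likelihood test), a level 4.37 times lower, close to that of Tbp mRNA itself. The CONTROL embryos fell into a lower range of 170 to 214 normalised reads, with 6 embryos, and a higher range of 407 to 496, with replicates 8, 9 and 10, the libraries that also stood apart in their transposable element and mitochondrial shares. Without these 3, the log2 fold change of H2afj was -1.56 (adjusted p = 0.000341 with an SE of 0.34, edgeR). The LOF embryos stayed below the lower range. H2afj fell with each scaling and each embryo left out, with log2 fold changes from -2.29 to -1.99 when 1 embryo was left out. H2afy, which encodes macroH2A, lies on chromosome 13 (56073619 to 56136361, minus strand) and had 8 reads in all over the 9 CONTROL and 9 reads over the 9 LOF embryos. Its log2 fold change of -0.15 had an SE of 0.92, and no difference was detectable at this depth.

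Of the genes for H3.3, H3f3a fell in TBP LOF embryos and H3f3b did not pass the test. H3f3a, on chromosome 1 (180800832 to 180813943, minus strand), had 1252, 1487 and 2572 normalised reads in CONTROL and 307, 753 and 998 in LOF embryos. Every LOF embryo was below every CONTROL embryo, as for 6.69% of all features tested. The log2 fold change of H3f3a was -1.33 (adjusted p = 0.000372 with an SE of 0.30, edgeR quasi-likelihood test), a level 2.52 times lower. H3f3b, on chromosome 11 (116021912 to 116027962, minus strand), had 1986, 3142 and 5367 normalised reads in CONTROL and 1227, 1769 and 3865 in LOF embryos. Here 8 of 9 LOF embryos were below the CONTROL median, 6 of them below every CONTROL embryo, and the groups overlapped. The log2 fold change of H3f3b was -0.66 (adjusted p = 0.0904 with an SE of 0.30, same test), with an interval of 2 SE from -1.26 to -0.06. The H3f3b value passed with DESeq2 (adjusted p = 0.037) and without LOF replicate 8, which had 3865 normalised reads (adjusted p = 0.0269, edgeR), and it turned to 0.19 with TMM. With TMM, H3f3a was at -0.47 and did not pass (adjusted p = 0.117, edgeR). Both genes have near-identical copies in the genome, among which reads may be divided, and H3f3a overlaps H3f3aos and Gm17275 on the other strand.

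No linker histone gene of the set passed the test in TBP LOF embryos. H1foo, on chromosome 6 (115944938 to 115950236, plus strand), had 52.2, 124 and 295 normalised reads in CONTROL and 66.3, 90.8 and 205 in LOF embryos, and 6 of the 9 LOF values were under the CONTROL median. Its log2 fold change was -0.25 (adjusted p = 0.607 with an SE of 0.31, edgeR quasi-likelihood test), with an interval of 2 SE from -0.87 to 0.38. H1f0, on chromosome 15 (79028450 to 79030504, plus strand), had 16.2, 36.6 and 94.2 normalised reads in CONTROL and 12.9, 38.5 and 60.3 in LOF embryos, and 1 LOF embryo was under every CONTROL embryo while the rest lay within the CONTROL range. The log2 fold change of H1f0 was -0.19 (adjusted p = 0.745 with an SE of 0.35, same test), and 0.44 (SE 0.40) without CONTROL replicates 8, 9 and 10. H1fx, a linker histone of low abundance here, lies on chromosome 6 (87980421 to 87981637, minus strand) and had 18 reads over the CONTROL and 35 reads over the LOF embryos, with a log2 fold change of 0.36 (SE 0.86), which ran from 0.08 to 1.52 with 1 embryo left out in turn. Relative to the other genes of the embryo, which is what TMM measures, H1foo stood at 0.65 (adjusted p = 0.052, edgeR) and, with median-of-ratios scaling, at 0.67 with an adjusted p of 0.0426 (edgeR), both with the opposite sign. H1fx overlaps the miRNA gene Gm47286 on its own strand. On the other strand, H1f0 overlaps Gm49544, H1fx overlaps Gm5577 and H2afy overlaps Gm47071, and of the genes that passed the test H2afx overlaps Gm44335 and H2afj overlaps Gm44364, both annotated as miRNA genes. No source used here says whether the counting used strand.

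**Figure D3:**
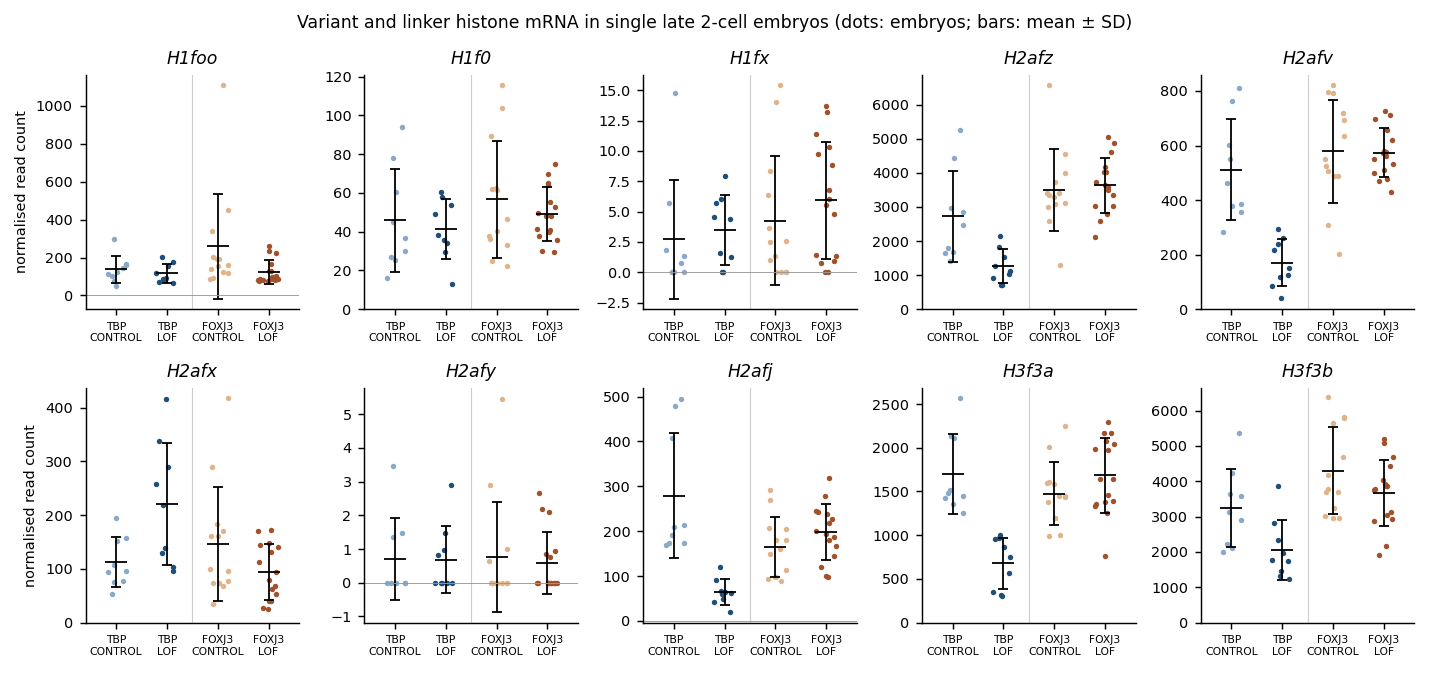
Normalised read counts of each gene (spike-in scaled in the TBP experiment, TMM scaled in the FOXJ3 experiment) by group, with a dot for each embryo and bars for mean and SD; the experiments are scaled apart and their heights should not be compared. In H2afj and H3f3a every TBP LOF embryo lies below every TBP CONTROL embryo, as for 6.69% of all features tested. H2afx is the gene with TBP LOF embryos above all CONTROL embryos (5 of 9), and 1 FOXJ3 CONTROL embryo stands apart in H1foo (1108).

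**Figure D4:**
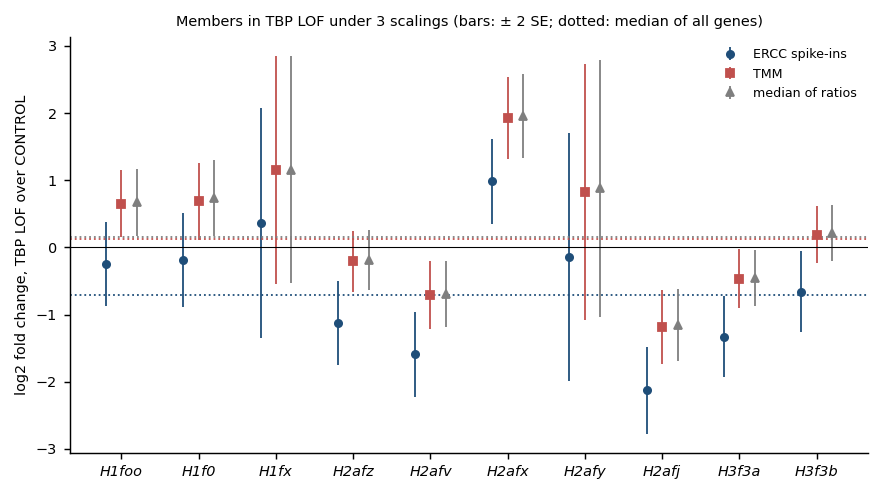
Log2 fold changes of the 10 genes in TBP LOF over CONTROL embryos with spike-in, TMM and median-of-ratios scaling, with bars of 2 SE to each side and dotted lines at the medians of all genes tested (-0.70, 0.13 and 0.15). H2afj (-2.13, or -1.18 with TMM) is lowest and H2afx (0.98, or 1.93 with TMM) highest in each, while H1foo, H1f0, H2afy and H3f3b change sign.

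In FOXJ3 LOF embryos, 0 of the 10 genes passed edgeR's quasi-likelihood test at an adjusted p under 0.05, beside 0.0102% of the 19517 features tested (2 features). Without adjustment, H1foo and H2afx were under 0.05, beside 1115 of all features tested, and DESeq2 likewise called 0 of the 10. Over the 10 genes the median log2 fold change was -0.11, beside -0.03 over all genes tested. H2afz had 1306, 3341 and 6588 normalised reads in CONTROL and 2112, 3608 and 5051 in LOF embryos, a log2 fold change of 0.06 (SE 0.17). H2afv had 202, 551 and 821 in CONTROL and 431, 567 and 726 in LOF embryos, a log2 fold change of -0.02 (SE 0.16). The intervals of 2 SE for these H2A.Z genes ran from -0.27 to 0.39 and from -0.33 to 0.29. H3f3a was at 988, 1448 and 2251 normalised reads in CONTROL and at 758, 1641 and 2294 in LOF embryos (log2 fold change 0.16, SE 0.14). H3f3b was at 2947, 3766 and 6384 in CONTROL and at 1914, 3816 and 5190 in LOF embryos (log2 fold change -0.24, SE 0.16). H2afj, the gene with the largest fall after loss of TBP, was at 89.7, 160 and 292 in CONTROL and at 98.2, 197 and 319 in FOXJ3 LOF embryos, a log2 fold change of 0.22 (SE 0.18, interval of 2 SE from -0.14 to 0.58).

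Of the 10 genes, H1foo, the oocyte linker histone, had the most FOXJ3 LOF embryos outside the CONTROL range. It had 89.3, 159 and 1108 normalised reads in CONTROL and 74.6, 92.9 and 262 in LOF embryos, and 8 of 16 LOF embryos were below every CONTROL embryo. The log2 fold change was -1.04 (adjusted p = 0.479 with an SE of 0.30, edgeR quasi-likelihood test). The value rested in part on CONTROL embryo 3 of batch 1, which held the 1108 reads, and was -0.57 without it. That embryo also had the lowest H2afz (1306) and H2afv (202) of the CONTROL embryos, and the highest summed oocyte markers (4164 rpm against a CONTROL median of 2014) and late 2-cell markers (1096 rpm against 397). Over the groups, summed oocyte markers had medians of 2014 rpm in FOXJ3 CONTROL and 1671 in FOXJ3 LOF embryos, and summed late 2-cell markers 397 and 322, with 0 of the 19 markers passing (3 lower at an unadjusted p under 0.05, edgeR, and 0 in DESeq2). Their part in the H1foo value was not tested. The H1foo difference was -1.53 in batch 1 alone and -0.47 in batch 2 alone. H2afx was at 34.7, 99.5 and 418 normalised reads in CONTROL and at 24.6, 86.6 and 173 in LOF embryos, a log2 fold change of -0.70 (adjusted p = 0.788 with an SE of 0.26, same test), opposite in sign to that in the TBP experiment. The mean of H2afx was 182 in CONTROL embryos of batch 1 and 106 in those of batch 2, and 124 and 56.6 in the LOF embryos of these batches. H1f0 (-0.20, SE 0.22), H1fx (0.75, SE 0.62) and H2afy (-0.27, SE 0.81) differed by less than 2 SE.

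The effects of both depletions were compared in a fit of all 4 groups, in which the TBP embryos were scaled by the spike-ins and the FOXJ3 embryos by TMM, as in their own comparisons. Of the 10 genes, 4 were lower and 1 was higher in the TBP effect than in the FOXJ3 effect, while 28.7% of 19657 features differed, and the median difference was -0.73 over all genes tested. The difference of the log2 fold changes was -2.33 for H2afj (adjusted p = 3.94e-07 with an SE of 0.34, edgeR quasi-likelihood test), -1.55 for H2afv (adjusted p = 0.000132 with an SE of 0.32), -1.48 for H3f3a (adjusted p = 5.38e-05 with an SE of 0.29) and -1.16 for H2afz (adjusted p = 0.00328 with an SE of 0.32). These are the same genes that fell in TBP LOF embryos. For H2afx the difference was 1.71 (adjusted p = 0.00113 with an SE of 0.42, same test), larger than its change in the TBP experiment because the FOXJ3 value was negative. H3f3b (-0.41, SE 0.30), H1foo (0.73, SE 0.44), H1f0 (-0.01, SE 0.38), H1fx (-0.38, SE 1.03) and H2afy (-0.09, SE 0.87) did not pass. The antibodies, the IgG and the library preparation also differed between the experiments and cannot be told apart from the depleted protein. With the spike-ins over all embryos, the median difference was -0.90 over all genes tested, and 5650 of 19657 features passed (5467 lower, 183 higher). The same 5 genes passed, in the same directions, with H2afx at 1.41 (adjusted p = 0.00977, edgeR) and H2afj at -2.49. With TMM over all embryos, the differences of H2afj and H2afx passed, those of H2afv, H3f3a and H2afz did not, and that of H1foo did (1.63, adjusted p = 0.00556, edgeR). Of all 19657 features, 4104 passed with this scaling, 2093 lower and 2011 higher.

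Shares of reads among the genes for H3.3, for H2A.Z or for linker histones do not depend on the scaling between embryos. H3f3b took 65.0% ± 4.64 of H3.3 reads (H3f3a plus H3f3b) in TBP CONTROL and 75.3% ± 7.15 in TBP LOF embryos (SD, n = 9 each). The rise of 10.4 percentage points was seen in 8 of 9 LOF embryos against the CONTROL median (exact permutation test, two-sided, p = 0.00317, adjusted p = 0.019 over 6 comparisons of shares). In FOXJ3 embryos the share went the other way, from 73.9% ± 5.66 (n = 13) to 67.9% ± 7.29 (n = 16). That fall of 5.94 percentage points was seen in 13 of 16 LOF embryos (permutation test, p = 0.0228, within batches p = 0.0255, adjusted p = 0.0341). It was -7.17 in batch 1 (permutation p = 0.0107) and -4.40 in batch 2 (permutation p = 0.391). The effects on the H3f3b share differed by 16.3 percentage points between the experiments (permutation of arms within experiment and batch, p = 0.00011, adjusted p = 0.00033 over 3 shares). The CONTROL embryos of the experiments also differed, with 65.0% in the TBP and 73.9% in the FOXJ3 experiment, which was not tested.

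H2afv took 16.9% ± 5.57 of H2A.Z reads (H2afz plus H2afv) in TBP CONTROL and 11.5% ± 3.02 in TBP LOF embryos (SD, n = 9 each), with all 9 LOF embryos below the CONTROL median. The fall of 5.38 percentage points had p = 0.00765 in the exact permutation test (adjusted p = 0.0195). Relative to H2afz, H2afv thus had fewer reads in LOF than in CONTROL embryos. CONTROL replicate 9 stood apart with a share of 29.8%, above the next embryo at 20.5%. With each of the TBP embryos left out in turn, the effect on the H2afv share lay between -5.99 and -3.76 percentage points. In FOXJ3 embryos the share was 14.3% ± 2.81 in CONTROL and 13.99% ± 2.58 in LOF embryos (permutation test, p = 0.731), and the difference of the effects did not pass (-5.03 percentage points, permutation p = 0.0443, adjusted p = 0.0664). H1foo took 72.7% ± 13.3 of the reads of H1foo, H1f0 and H1fx in TBP CONTROL and 71.6% ± 8.34 in TBP LOF embryos (exact permutation test, p = 0.831). Without CONTROL replicates 8, 9 and 10, the effects on the shares of H3f3b, H2afv and H1foo were 11.5, -4.17 and -8.73 percentage points (exact permutation tests, unadjusted p = 0.00839, 0.023 and 0.0617). In the FOXJ3 experiment it took 76.7% ± 10.1 in CONTROL and 67.9% ± 6.98 in LOF embryos, a fall of 8.79 percentage points seen in 14 of 16 LOF embryos (permutation test, p = 0.00975, within batches p = 0.0117, adjusted p = 0.0195). This fall was -14.5 in batch 1 (permutation p = 0.000787) and -1.90 in batch 2 (permutation p = 0.740). With each of the 29 embryos left out in turn, it lay between -10.9 and -7.63. These shares rest on 46 to 1119 linker histone reads per embryo, fewer than those of H3.3 (1584 to 13722) and H2A.Z (794 to 8191). The difference of the effects on the H1foo share was 7.67 percentage points (permutation p = 0.221).

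**Figure D5:**
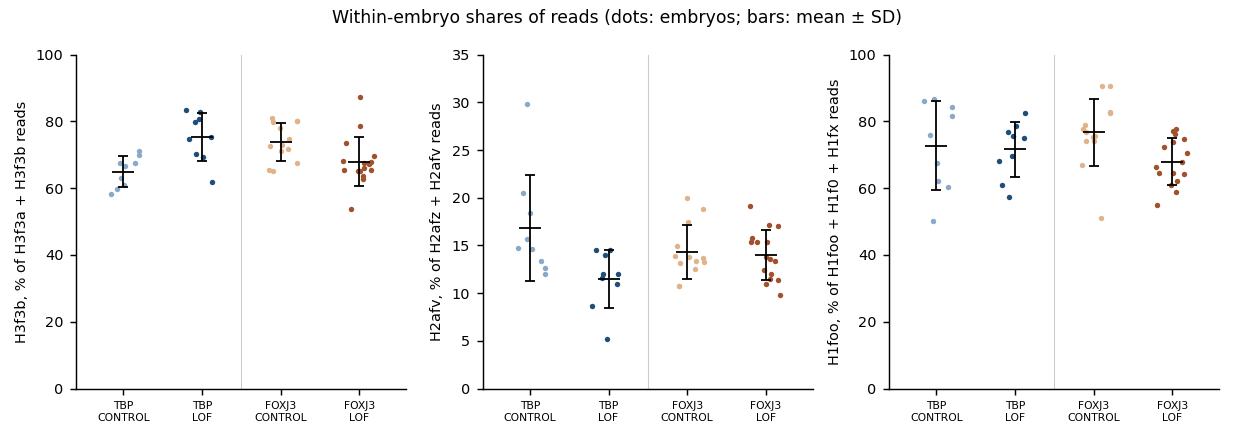
Shares of reads within an embryo, in percent, of H3f3b among H3.3 reads, H2afv among H2A.Z reads and H1foo among linker histone reads, with a dot for each embryo and bars for mean and SD; the middle axis ends at 35. The H3f3b share rises from 65.0 to 75.3 with TBP LOF and falls from 73.9 to 67.9 with FOXJ3 LOF, while the H2afv share falls from 16.9 to 11.5 with TBP LOF and is at 14.3 and 13.99 in the FOXJ3 experiment.

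The other genes of these pathways were taken from lists of 83 genes in all. In FOXJ3 LOF embryos 72 of them were tested and 0 passed in edgeR or DESeq2. At an unadjusted p under 0.05 in edgeR, 1 was lower and 2 were higher, beside 1115 of all 19517 features. In TBP LOF embryos 74 were tested, of which 42 fell and 0 rose in edgeR, 46 and 0 in DESeq2. At an unadjusted p under 0.05 in edgeR, 47 were lower and 0 higher, beside 7596 of all 19356 features. Over all features tested, 29.7% were lower and 1.34% higher at an adjusted p under 0.05. With filterByExpr, which keeps the well-expressed features, 42 of the 59 list genes left were lower, beside 52.5% of all features. Of 13 other variant histone genes, 6 had enough reads in the TBP experiment, of which 1 fell and 0 rose. The gene that fell was Cenpa, the H3 variant of centromeres (log2 fold change -1.27, SE 0.31, adjusted p = 0.000834, edgeR quasi-likelihood test), with 901 normalised reads at the median of CONTROL and 409 of LOF embryos, and -0.36 without a call under TMM. H3f3c (-0.84, SE 0.98), Hist3h2ba (1.38, SE 0.72) and Hist1h2aa, a testis form of H2A (1.46, SE 0.91), did not pass with the spike-ins. Of 5 somatic linker histones of the histone cluster, 4 were tested and 0 passed, with or without adjustment and in DESeq2, Hist1h1b at -0.75 (SE 0.82), Hist1h1c at -0.07 (SE 0.65), Hist1h1a at 0.55 (SE 0.60) and Hist1h1d at 0.36 (SE 0.98). These genes encode mRNA that mostly ends in a stem-loop without a poly(A) tail, and their median levels in the TBP experiment were at most 9.19 normalised reads. Of the pseudogenes named after the 10 genes, H3f3a-ps1 was tested in the TBP experiment (1.62, SE 1.06) and did not pass.

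The genes that act on histones or on histone mRNA are given list by list. They are to be read beside 29.7% of all features that were lower in TBP LOF embryos and 52.5% of those left by filterByExpr. The median log2 fold change was -0.70 over all genes tested and -0.90 over the genes left by filterByExpr. Of 20 genes for the exchange of H2A.Z, 13 fell and 0 rose, with a median log2 fold change of -1.31. They included Ruvbl1, an ATPase of the remodellers that exchange H2A.Z (-1.96, SE 0.30, adjusted p = 8.22e-07, edgeR), and Actr6, an actin-related subunit of the SRCAP complex (-2.80, SE 0.45, adjusted p = 1.52e-06). Yeats4 (0.08, SE 0.29) and Ing3 (0.10, SE 0.39), subunits of the same remodellers, did not pass. Of 10 chaperones of H3.3 and CENP-A, 5 fell and 0 rose, with a median of -0.70, beside -0.70 over all genes tested. The number of these chaperones that passed ran from 2 to 6 with 1 embryo left out in turn. Hjurp, the chaperone of CENP-A, was at -2.24 (adjusted p = 6.53e-07 with an SE of 0.34, edgeR) and Dek, which binds H3.3, at -1.10 (adjusted p = 0.00207 with an SE of 0.29). The list of 20 other histone chaperones, which also holds Slbp, a protein that binds histone mRNA, had 16 lower and 0 higher (median -1.04). Those lower included Ipo4, an importin that carries histones (-2.28, SE 0.37), and Chaf1b, a subunit of the replication-coupled chaperone CAF-1 (-2.46, SE 0.45). Npm2, the nucleoplasmin of the oocyte, was at 0.08 (SE 0.33). Of 13 genes that act on H2A.X after DNA damage, 7 fell and 0 rose (median -1.02), with Atm, a kinase that phosphorylates H2A.X, at -2.40 (adjusted p = 8.77e-08 with an SE of 0.33, edgeR) and Mdc1, which binds the phosphorylated form, at -2.21 (adjusted p = 9.53e-07 with an SE of 0.34). Eya1, a phosphatase that acts on H2A.X, was at 0.50 (SE 0.47). Without CONTROL replicates 8, 9 and 10, 3 chaperones of H3.3 and CENP-A and 8 other chaperones were lower, beside 4367 of all 19421 features. With filterByExpr, 11 of 17 genes were lower for H2A.Z exchange, 6 of 10 for the chaperones of H3.3 and CENP-A, 17 of 19 for the other chaperones and 7 of 12 for the H2A.X genes. The shares for the chaperones of H3.3 and CENP-A and for the H2A.X genes were thus near that of all features under this filter, and no list was tested against the other features. With TMM the calls split into 6 lower and 4 higher for H2A.Z exchange, 1 and 1 for the chaperones of H3.3 and CENP-A, 3 and 1 for the other chaperones and 4 and 1 for the H2A.X genes. Dek then lost its call, and Yeats4, Ing3, Npm2, Eya1 and Hist3h2ba were higher (adjusted p from 0.00133 for Yeats4 to 0.0358 for Ing3, edgeR).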

How the data were processed

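Per the labels and the Methods, the authors trimmed the reads with Trimmomatic, set reads that start at transcript 5' ends apart, mapped them with STAR (2.7.11a, per the submitters' processing notes) to GRCm38 with the construct added, and counted with TEcount over GENCODE genes, transposable elements and ERCC spike-ins. The deposited values are not normalised, are all whole numbers and were used as they are: gene and ERCC rows hold read counts, and transposable element rows hold estimated counts, since reads on several copies are shared out. The sources used here do not say how reads on several genes were treated. The reads carry no molecular identifiers, so the spread between embryos was used throughout.

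Of 49 embryos, 47 were kept (at least 500000 reads and 1000 genes, at most 10% mitochondrial and 15% ERCC reads). A TBP CONTROL embryo with 464300 reads and a FOXJ3 LOF embryo with 308682 reads were left out. For TBP, the labels (9 LOF, 10 CONTROL) were followed where the Methods state 10 and 9. Embryos of the TBP experiment come, per the labels, from 3 biological replicates (the Methods give 3 as a minimum for the study), to which embryos are not assigned, so that p-values measure the spread between these embryos. Features were tested if 25% or more of the embryos had at least 1 read, with edgeR 4.0.16 (R 4.3.3), scaled by 42 ERCC transcripts (TBP) or TMM with batch as covariate (FOXJ3), with Benjamini-Hochberg adjustment over all features and a threshold of 0.05. Normalised read counts are counts divided by these size factors, and SE was derived from the F statistic. Read shares were compared by permutation tests in scipy 1.17.1 (exact, or 100000 resamples). The test was tested on simulated data. DESeq2 1.42.0, other scalings and filters, a replicate block and embryos left out in turn were tried. The 10 genes and the gene lists were chosen with earlier results of these data known. In each list and direction, the 2 genes of lowest adjusted p in the TBP comparison are named. The comparison of share effects between experiments and the fits without TBP CONTROL embryos 8, 9 and 10 were added after seeing the data. Promoters are from RefSeq.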

Additional observations from a re-analysis of the deposited data

Results flagged for a closer look

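In 30 groups of 9 embryos, the highest and lowest values were tested with Dixon's criterion, and 5 values stood apart. Chance gives about 1 in 20 for normally distributed values, which low counts with zeros are not. The FOXJ3 groups were not tested in this way. H1foo was at 295 normalised reads in TBP CONTROL replicate 6, above the next embryo at 168. H1fx was at 14.8 in TBP CONTROL replicate 10, above the next at 5.71. H2afy was at 3.47 in TBP CONTROL replicate 6 and at 2.90 in TBP LOF replicate 2, values of a few reads. The H2afv share of H2A.Z reads was 29.8% in TBP CONTROL replicate 9, above the next embryo at 20.5%.

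The effect of TBP LOF differed from that of FOXJ3 LOF for 5 of the 10 genes in edgeR's quasi-likelihood test of the difference, beside 28.7% of the 19657 features tested. On the log2 scale, the differences were -2.33 for H2afj, -1.55 for H2afv, -1.48 for H3f3a, -1.16 for H2afz and 1.71 for H2afx, beside a median of -0.73 over all genes tested. The effects on the H3f3b share of H3.3 reads differed by 16.3 percentage points in the permutation test.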

How the results depend on the processing

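Of 1866 values under an alternative, 1720 kept their direction and their side of the threshold, or stayed within 1.5 times a count, and 146 did not. Over the alternatives run for TBP LOF against CONTROL, embryos left out in turn included, H2afj and H2afv kept their call, and H2afx kept it in all but 1. That alternative, chosen after seeing the data, left out CONTROL embryos 8, 9 and 10. Then 3 of the 10 genes passed, H3.3 and CENP-A chaperones had 3 calls and other histone chaperones 8, beside 4534 of 19421 features. With these embryos left out, H1f0 (0.44), H2afy (0.22), Hist1h1c (0.74) and Ing3 (-0.0011) changed sign. With TMM, 3 of the 10 genes passed in TBP LOF (2 lower, 1 higher), beside 4937 of 19356 features (2451 lower, 2486 higher). In the difference between experiments with TMM, 3 of the 10 genes passed (1 lower, 2 higher), beside 4104 of 19657 features (2093 lower, 2011 higher).

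In TBP LOF, values that changed sign under TMM and under median-of-ratios scaling were those of H1foo (0.65 and 0.67), H1f0 (0.69 and 0.73), H2afy (0.82 and 0.88), H3f3b (0.19 and 0.22), Foxj3 (0.38 and 0.39), Hist1h1b (0.17 and 0.18) and Hist1h1c (0.58 and 0.63). In the difference between experiments under TMM they were those of H1f0 (0.89), H1fx (0.46), H2afy (0.89), H3f3b (0.44) and Foxj3 (0.13). These scalings take out the shift of all features by construction. H3.3 and CENP-A chaperones had 2 calls under either scaling and other histone chaperones 4. Calls of H3.3 and CENP-A chaperones were 3 without a filter and 3 with all embryos, and those of other variant histones were 2 without a filter. H3f3b passed with DESeq2 (adjusted p = 0.037) and with filterByExpr (adjusted p = 0.0457, edgeR).

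In FOXJ3 LOF, features called were 4 with DESeq2, 4 without a filter, 1 with filterByExpr, 0 in batch 1 and 1 in batch 2. Values changed sign with ERCC scaling for H1f0 (0.016) and H2afv (0.18), in batch 1 for H2afv (0.17), and in batch 2 for H1fx (-0.50), H2afz (-0.29), H2afy (0.91), H2afj (-0.047), H3f3a (-0.060) and Tbp (-0.10). In batch 2 the FOXJ3 effect on the H3f3b share was -4.40, on the H2afv share 0.25 and on the H1foo share -1.90 percentage points. With all TBP embryos the effect on the H1foo share was 0.27. The cause of these changes was not tested.

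Embryo numbers are not stated to pair the embryos. Deviations of same-numbered embryos correlated with r from -0.05 to 0.13 in 7 TBP pairs and from -0.21 to 0.27 in 12 FOXJ3 pairs. Of these, 0 and 3 embryo pairs correlated best with their own number, and the 3 were all in FOXJ3 batch 2. Such correlations cannot decide whether same-numbered embryos shared a collection. With a replicate block, 5 of the 10 genes passed in TBP LOF (5001 of all features) and 0 in FOXJ3 LOF (0 of all features), 2 H3.3 and CENP-A chaperones passed, and Hist1h1c (0.37) and Hist1h1d (-0.22) in TBP LOF and H2afv (0.064) and H2afy (0.27) in FOXJ3 LOF changed sign.

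With 1 embryo left out, features called in FOXJ3 LOF ranged from 1 to 4 and H3.3 and CENP-A chaperones called in TBP LOF from 2 to 6. In TBP LOF, log2 fold changes ranged from -0.28 to 0.0049 for H1f0, from -0.60 to 0.36 for H2afy, from -0.39 to 0.42 for Hist1h1c, from -0.67 to 0.65 for Hist1h1d, from -0.034 to 0.15 for Yeats4, from -0.012 to 0.24 for Ing3 and from -0.19 to 0.19 for Npm2. In FOXJ3 LOF they ranged from -0.014 to 0.17 for H2afz, from -0.10 to 0.04 for H2afv and from -0.65 to 0.40 for H2afy. The effect on the H2afv share in FOXJ3 LOF ranged from -0.69 to 0.12 and that on the H1foo share in TBP LOF from -3.95 to 0.67 percentage points. Depth limits H1fx and H2afy, for which most embryos held fewer than 10 reads.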
